A study of Mus musculus with 12 samples.

Results

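The genes described here encode the alpha chains of collagen, the triple-helical proteins that make up most of the extracellular matrix of the heart. Members were taken by symbol, as the entries of the count table that name a collagen chain (Col followed by a type number, the letter a and a chain number), and 44 of the 39331 gene entries did so. Their messenger RNA was measured by sequencing in hearts of C57BL/6N mice aged 9 months, untreated in both groups. The 6 wild-type (WT) hearts were compared with 6 hearts of Lemd2 p.L13R knock-in (KI) mice, with 1 library per sample, so n = 6 in each group throughout. LEMD2 is a protein of the inner nuclear membrane, and L13R replaces a leucine by an arginine. The labels do not say whether the KI mice carry 1 or both altered alleles, name no Cre or transgene, and give the tissue as heart without naming chambers. The comparison asks what the substitution does to heart gene expression at this age.

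Collagen chains assemble in threes, and a type is defined by the chains it holds. In the heart, fibroblasts make the fibrillar types I, III and V, which bear tension, and the beaded filament of type VI, while type IV forms the network of the basement membrane around cardiomyocytes and vessels. Fibril-associated collagens (FACIT) decorate the surface of fibrils, type VIII forms open networks and is known from vessel walls and remodelling hearts, and the multiplexins XV and XVIII sit at the border of basement membrane and interstitium. Fibrillar chains are made as precursors whose propeptides are cut off outside the cell before lysyl oxidases cross-link them. In whole tissue, more RNA per cell and more cells that express a gene cannot be told apart.

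Library totals were 40.8 ± 2.73 M counts (SD; M is 1000000 counts) in WT and 36.6 ± 6.10 M in KI, with KI 3 to KI 5 the lowest 3. All titles give the same age, but the bracketed names of these 3 libraries repeat it as a tag and those of the other KI libraries do not. The name of KI 2 holds the tag old and that of KI 6 the tag new. The names of KI 1 and KI 2 join numbers with a plus. The labels do not explain these marks, nor say whether they stand for batches or pooled samples. KI 6 stood apart from every other library. It held 223 CPM (counts per 1000000 counts) of the atrial light chain gene Myl4, against at most 5.31 CPM elsewhere, and a summed 27.2 CPM of 4 adipocyte markers, none of which passed the filter on low counts, against at most 0.483 CPM elsewhere. For the collagen genes, the calls that change without KI 6 or by KI subset are therefore also given. Genes of the mitochondrial chromosome took 37.0% ± 2.28 of counts in WT (SD, range 34.0 to 40.4) and 32.1% ± 1.17 in KI (SD, range 30.9 to 33.9), with no overlap. Scaling by library total in place of TMM (trimmed mean of M values, which assumes that most genes do not differ) moved the median log2 fold change of all genes from 0.01 to 0.16, so directions are relative to the TMM scaling. Lemd2 (Gene ID 224640) had 27.4 ± 1.97 CPM in WT and 21.3 ± 2.88 CPM in KI (SD), a log2 fold change of -0.36 (SE 0.09; edgeR adjusted p = 0.0213), and a gene count does not show the substitution itself.

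Promoter windows of 4 chains that rose are shown because they pair chains that assemble together or in the same fibril. Col1a2 and Col3a1 encode chains of the 2 main fibrillar types, and Col8a1 and Col8a2 are the 2 chains of type VIII. Each window is the 250 bases before the gene's start in RefSeq (build GRCm38.p6), written 5′ to 3′ on the gene's own strand. Capitals mark matches, searched for on either strand, to 4 short motifs that are known from many promoters. The first is CCAAT, which the factor NF-Y is known to bind in promoters of collagen genes. The second motif is TATAAA, the core of the element that positions the start of transcription. The third motif is GGGCGG, which is bound by proteins of the Sp family. The last motif is CAGACA, an element of the kind that SMAD proteins bind when transforming growth factor beta is active. Neighbouring matches may overlap. The positions are chr6:4505368-4505617, plus strand for Col1a2, chr1:45311288-45311537, plus strand for Col3a1, chr16:57754738-57754987, minus strand for Col8a1 and chr4:126286544-126286793, plus strand for Col8a2.
Col1a2: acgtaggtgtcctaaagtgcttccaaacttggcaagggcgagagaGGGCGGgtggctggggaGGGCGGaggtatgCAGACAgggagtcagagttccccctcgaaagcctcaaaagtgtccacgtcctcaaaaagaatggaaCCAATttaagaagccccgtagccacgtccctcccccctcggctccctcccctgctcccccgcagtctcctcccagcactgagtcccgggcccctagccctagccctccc
Col3a1: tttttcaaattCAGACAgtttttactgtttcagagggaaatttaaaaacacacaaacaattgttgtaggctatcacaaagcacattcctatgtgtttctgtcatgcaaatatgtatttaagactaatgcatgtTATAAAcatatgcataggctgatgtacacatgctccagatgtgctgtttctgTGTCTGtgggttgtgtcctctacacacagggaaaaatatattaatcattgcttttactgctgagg
Col8a1: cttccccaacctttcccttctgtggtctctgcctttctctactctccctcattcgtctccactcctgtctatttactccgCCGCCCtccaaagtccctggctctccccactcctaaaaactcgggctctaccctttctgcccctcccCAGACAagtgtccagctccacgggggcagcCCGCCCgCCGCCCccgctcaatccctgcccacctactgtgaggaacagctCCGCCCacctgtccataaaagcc
Col8a2: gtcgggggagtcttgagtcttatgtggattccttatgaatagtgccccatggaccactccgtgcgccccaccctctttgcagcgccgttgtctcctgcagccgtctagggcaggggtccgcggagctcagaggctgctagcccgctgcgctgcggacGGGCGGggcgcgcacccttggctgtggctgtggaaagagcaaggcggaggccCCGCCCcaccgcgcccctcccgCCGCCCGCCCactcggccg
The windows differ from one another: that of Col3a1 is rich in A and T and holds the TATAAA match, while those of the type VIII pair hold several GC boxes each. RefSeq windows were found for 35 of the 44 members, 38 windows in all. GGGCGG lay in 57.9% of these and in 32.7% of all 32851 promoter windows of that length. CAGACA lay in 23.7% against 17.1%, CCAAT in 34.2% against 33.85%, and TATAAA in 13.2% against 12.4%. These shares cover members that rose and members that did not. Of those that rose, Col1a1, Col5a2, Col4a3, Col12a1 and Col14a1 had no window. These matches are letters in a window and do not show binding.

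Collagen transcripts were more abundant in KI hearts. They took 0.153% ± 0.0328 (SD, range 0.0983 to 0.188) of all counts in WT and 0.233% ± 0.0428 (SD, range 0.187 to 0.307) in KI, and the ranges overlapped only in WT 1 and KI 5. Of the counts outside the mitochondrial chromosome, whose share differs between the groups as given above, they took 0.241% ± 0.0447 (SD, range 0.165 to 0.286) in WT and 0.344% ± 0.0629 (SD, range 0.27 to 0.449) in KI, and 14 members were called higher in a fit without mitochondrial genes. The part of the mitochondrial share in the collagen result was not tested further. Of the 44 members, 35 passed the filter on low counts, 15 were higher in KI at an adjusted p under 0.05 (edgeR quasi-likelihood test, Benjamini-Hochberg over all 15602 genes tested) and 0 were lower. Over all genes tested, 4.41% were higher and 4.34% lower by the same rule. At an unadjusted p under 0.05, 19 members were higher and 0 lower, against 12.9% of all genes in each direction. DESeq2 called 17 members higher and 0 lower (6.29% and 6.85% of all genes), and voom called 12 and 0 (3.98% and 4.16%). With library totals in place of TMM, 18 members were higher and 0 lower, but 19.0% of all genes were then higher and 1.22% lower. The log2 fold change was above 0 in 30 of the 35 members tested, against 52.8% of all genes, with a median of 0.56 against 0.01. In 8 members every KI library lay above every WT library, which held for 2.15% of all genes tested. In 0 members was every KI library below every WT library, against 2.21% of all genes.

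**Figure D1:**
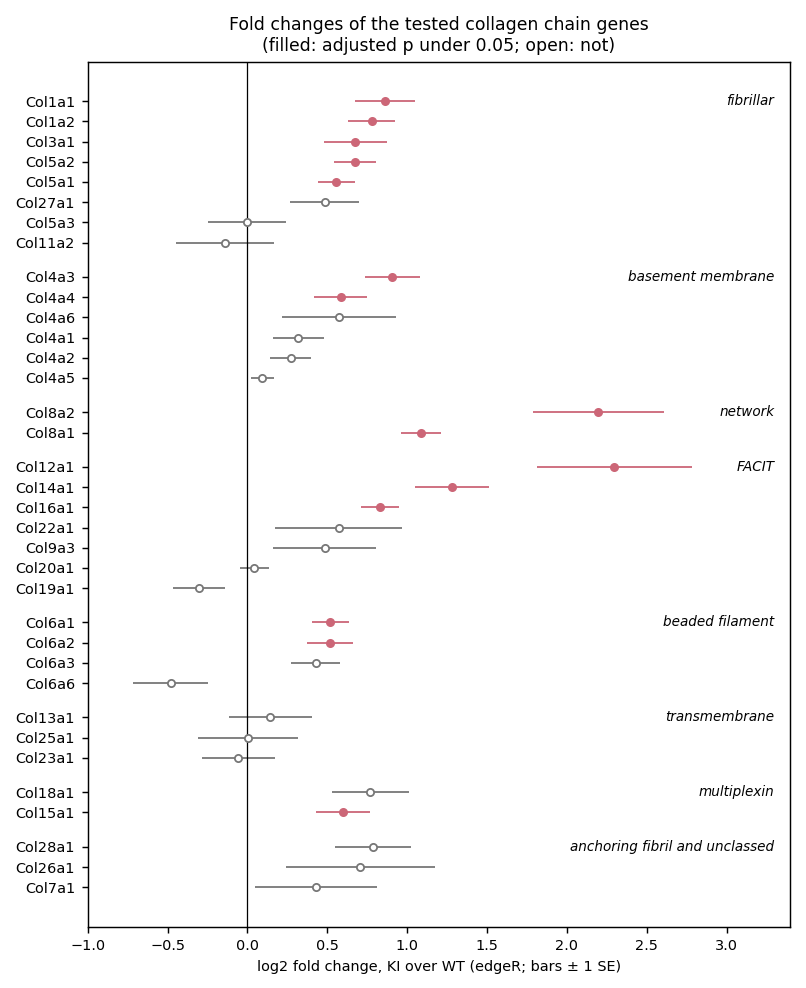
Log2 fold change of each tested collagen chain gene, KI over WT, with bars of 1 SE, grouped by collagen class (n = 6 hearts per group). The 15 filled points passed an adjusted p of 0.05 and all lie to the right of 0, between 0.52 (Col6a2) and 2.30 (Col12a1), while the transmembrane chains sit around 0.

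Counts cover the whole gene span, introns included, but were divided here by exon length alone. The order of genes is therefore not one of exonic transcript levels, and reads in introns can raise a gene's place. Per kb of exon, the most abundant chains in WT were Col4a1 (67.4 CPM per kb), Col4a2 (49.4), Col3a1 (31.6), Col1a2 (16.5), Col6a1 (14.1), Col15a1 (12.2), Col6a2 (10.8) and Col1a1 (10.1). In KI the same 8 chains stood at 84.1, 59.6, 50.5, 28.3, 20.3, 18.4, 15.4 and 18.4 CPM per kb, so that the order of the leading 5 did not change. The changes were spread unequally over the classes. The basement membrane chains made up 51.9% ± 1.96 (SD) of the summed collagen CPM in WT and 46.5% ± 2.65 in KI, the fibrillar chains 27.5% ± 1.46 and 31.4% ± 3.21, and the network chains 1.64% ± 0.342 and 2.55% ± 0.435. These shares are given as a description, without a test.

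The chains of fibrillar types I and III rose in KI hearts, and so did Col5a1 and Col5a2 of type V, but not Col5a3. Of the 11 fibrillar genes, 8 were tested, 5 were higher and 0 lower by edgeR (6 higher and 0 lower at an unadjusted p under 0.05), with a median log2 fold change of 0.61. Their summed level went from a mean of 439 to 698 CPM. Col1a1 (Gene ID 12842, chromosome 11), the more frequent chain of type I collagen, ranged from 42.4 through a median of 59.7 to 74.2 CPM in WT and from 78.0 through 98.6 to 176 CPM in KI. The groups did not overlap, with KI 6 far above the next KI library, at 112 CPM. Its log2 fold change was 0.86 (SE 0.19, edgeR adjusted p = 0.0154), and 0.67 (adjusted p = 0.0173) without KI 6. Col1a2 (Gene ID 12843, chromosome 6), the partner chain whose promoter is shown above, spanned 75.6 to 109 CPM in WT (median 84.1) and 111 to 225 CPM in KI (median 144). Again no KI library reached down into the WT range, and the log2 fold change was 0.78 (SE 0.15, adjusted p = 0.00796). 

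Col3a1 (Gene ID 12825, chromosome 1), the only chain of type III and the most abundant fibrillar gene, spanned 114 to 232 CPM in WT (median 177) and 172 to 377 CPM in KI (median 290). Here the groups overlapped, with KI 5 at 172 CPM and KI 4 at 209 CPM inside the WT range. The log2 fold change of 0.68 (SE 0.20) had an adjusted p of 0.0471 by edgeR, close to the threshold. It stayed under it in 3 of 12 fits with 1 library left out (without WT 1, KI 4 or KI 5). Without WT 6 the adjusted p was 0.0981 and without KI 6 it was 0.089. By voom it was 0.0584, and in edgeR it was 0.0553 without the filter on low counts and 0.0510 without mitochondrial genes. Type V collagen starts fibrils and limits their width, and its 2 main chains moved with less scatter. Col5a1 (Gene ID 12831, chromosome 2) spanned 32.6 to 49.0 CPM in WT (median 43.8) and 51.2 to 78.5 CPM in KI (median 61.0), without overlap (log2 fold change 0.56, SE 0.11, adjusted p = 0.0124). Col5a2 (Gene ID 12832, chromosome 1), a neighbour of Col3a1 on the opposite strand, spanned 24.4 to 40.9 CPM in WT (median 31.8) and 38.3 to 66.2 CPM in KI (median 51.5). Only KI 5 fell within the WT range, and the log2 fold change was 0.67 (SE 0.13, adjusted p = 0.00898). The third type V chain differed from these: Col5a3 had 32.6 ± 10.0 CPM in WT and 32.5 ± 9.86 CPM in KI (SD), a log2 fold change of -0.00 (SE 0.25, adjusted p = 0.994). Of the other tested fibrillar genes, Col27a1 stood at 0.49 (SE 0.22, adjusted p = 0.174; 0.61, adjusted p = 0.0404, without KI 1) and Col11a2 at -0.14 (SE 0.31, adjusted p = 0.818).

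**Figure D2:**
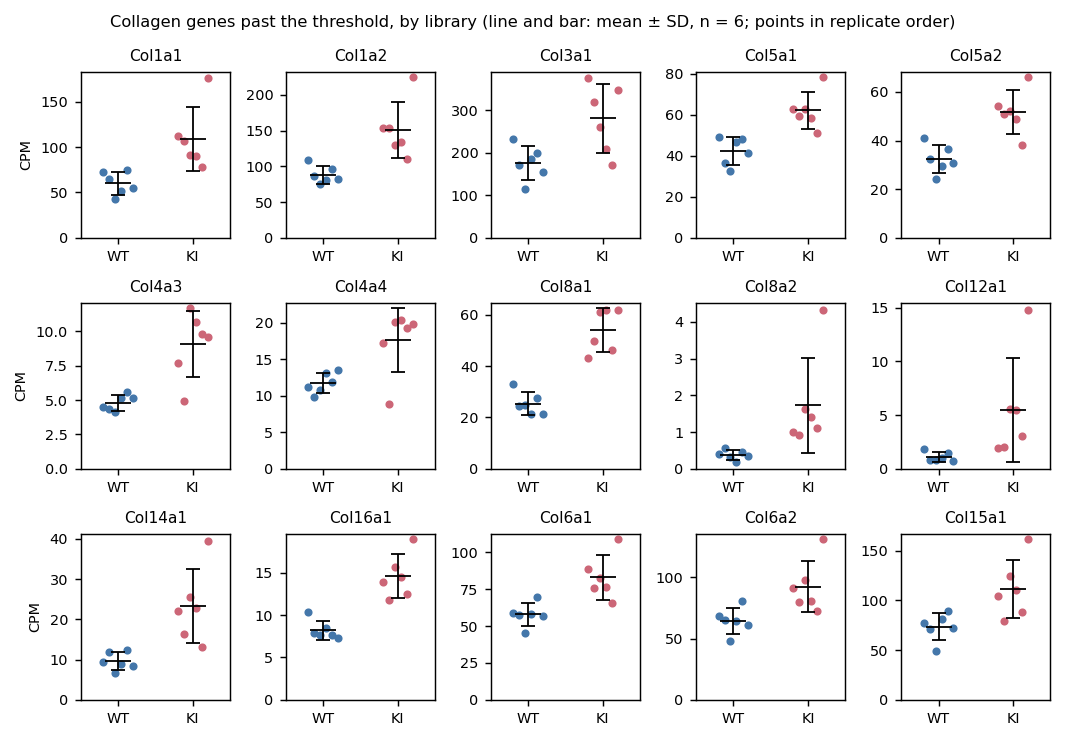
CPM in each library of the 15 collagen chain genes higher in KI, with points in replicate order within each group and the mean ± SD (n = 6) in black; every axis starts at 0. KI 6, the rightmost KI point, is the highest KI library in 12 of the 15 panels, and Col8a1 and Col16a1 show a clear gap between the groups.

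The basement membrane genes split by chain. All 6 type IV genes were tested, 2 were higher and 0 lower by edgeR (the same counts at an unadjusted p under 0.05), and the 2 that rose are not the abundant ones. Col4a1 and Col4a2, which form the type IV trimer found in nearly every basement membrane, had the highest levels of all collagen genes. Col4a1 spanned 274 to 571 CPM in WT (median 446) and 456 to 700 CPM in KI (median 551). Col4a2 spanned 214 to 385 CPM in WT (median 327) and 334 to 457 CPM in KI (median 380). Both pairs of ranges overlapped widely, and neither gene passed the test (Col4a1 log2 fold change 0.32, SE 0.16, adjusted p = 0.225; Col4a2 0.27, SE 0.13, adjusted p = 0.205). 

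Col4a3 (Gene ID 12828, chromosome 1) encodes a chain best known from the kidney glomerulus, where it joins the products of Col4a4 and Col4a5. It spanned 4.11 to 5.60 CPM in WT (median 4.84) and 4.95 to 11.7 CPM in KI (median 9.68). Only KI 2, at 4.95 CPM, lay within the WT range, and the log2 fold change was 0.91 (SE 0.17, adjusted p = 0.00802). Col4a4 (Gene ID 12829, chromosome 1) spanned 9.89 to 13.6 CPM in WT (median 11.6) and 8.89 to 20.4 CPM in KI (median 19.6). In 5 KI libraries it was above every WT library, while KI 2 was below all of them. Its log2 fold change of 0.58 (SE 0.17, adjusted p = 0.0454) passed the threshold in 2 of 12 fits with 1 library left out (without WT 4 or KI 2). The adjusted p was 0.0964 without KI 3 and 0.0818 without KI 6. By voom it was 0.0997, and in edgeR without the filter on low counts it was 0.0530. The 2 genes stand head to head on opposite strands. The start given by the Col4a4 promoter window, 82586849, and the start of the Col4a3 gene entry, 82586921, have 71 bases between them. The gene entry of Col4a4 reaches further, to 82587034, and the 2 entries overlap by 114 bases. Col4a1 and Col4a2, which did not pass, also stand head to head, with an overlap of 85 bases. Counting used the strand, so reads from the genes of either pair are told apart. Col4a5, the third partner, had 49.98 ± 4.33 CPM in WT and 53.4 ± 4.89 CPM in KI (SD), and its log2 fold change of 0.09 (SE 0.07) did not pass (adjusted p = 0.436). Col4a6 was at 0.57 (SE 0.35, adjusted p = 0.331) and at 0.15 without KI 6.

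Both tested type VIII genes rose, and Col8a1 had the smallest adjusted p of all collagen genes. Of the 3 network-forming genes, 2 were tested, 2 were higher and 0 lower by edgeR (2 and 0 at an unadjusted p under 0.05). Col8a1 (Gene ID 12837, chromosome 16) spanned 21.2 to 33.1 CPM in WT (median 24.7) and 43.2 to 61.8 CPM in KI (median 55.5). The lowest KI library, KI 1, stood well above the highest WT library, WT 1, and the log2 fold change was 1.09 (SE 0.12, adjusted p = 0.000693; 1.04 without KI 6). Col8a2 (Gene ID 329941, chromosome 4), whose product assembles with or without that of Col8a1, was far lower, with 0.179 to 0.569 CPM in WT (median 0.381) and 0.926 to 4.31 CPM in KI (median 1.27). Every KI library lay above every WT library, and KI 6 stood apart at 4.31 CPM from the next, at 1.62 CPM. The log2 fold change was 2.20 (SE 0.41, adjusted p = 0.00796), or 4.58-fold, and 1.67 (adjusted p = 0.00442) without KI 6.

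Among the fibril-associated genes, Col12a1, Col14a1 and Col16a1 rose. Of the 9 genes, 7 were tested, 3 were higher and 0 lower by edgeR (3 and 0 at an unadjusted p under 0.05); without the filter on low counts all 9 were tested and Col9a2 passed as well. Col12a1 (Gene ID 12816, chromosome 9), whose product binds type I fibrils and is abundant in tendon, had the largest fold change of any member tested. It spanned 0.757 to 1.85 CPM in WT (median 0.889) and 1.95 to 14.7 CPM in KI (median 4.26). KI 1, at 1.95 CPM, and KI 2, at 1.99 CPM, lay just above WT 1, at 1.85 CPM, while KI 6 was far above the next library, at 5.57 CPM. Its log2 fold change of 2.30 (SE 0.48) passed with an adjusted p of 0.0138 and was 1.69 (adjusted p = 0.0154) without KI 6, and by voom it was 2.00 (adjusted p = 0.0512). 

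Col14a1 (Gene ID 12818, chromosome 15), which encodes a related fibril-surface collagen, spanned 6.55 to 12.4 CPM in WT (median 9.17) and 13.2 to 39.6 CPM in KI (median 22.4). The groups did not overlap (log2 fold change 1.28, SE 0.23, adjusted p = 0.00703; 1.06 without KI 6). Col16a1 (Gene ID 107581, chromosome 4) spanned 7.30 to 10.3 CPM in WT (median 7.78) and 11.8 to 19.0 CPM in KI (median 14.2). This gene had the second smallest adjusted p of the members, again without overlap (log2 fold change 0.83, SE 0.12, adjusted p = 0.00258). The other tested FACIT genes did not pass: Col9a3 stood at 0.48 (adjusted p = 0.37), Col20a1 at 0.04 (0.81), Col19a1 at -0.30 (0.261) and Col22a1 at 0.57 (0.395). The value of Col22a1 came from KI 6, at 7.13 CPM, and was -0.07 without it.

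Type VI collagen forms beaded filaments near cell surfaces, from trimers of the Col6a1, Col6a2 and Col6a3 products. Of the 6 beaded filament genes, 4 were tested, 2 were higher and 0 lower by edgeR (3 and 0 at an unadjusted p under 0.05). Col6a1 (Gene ID 12833, chromosome 10) spanned 45.6 to 69.8 CPM in WT (median 58.1) and 65.6 to 109 CPM in KI (median 79.4). The ranges met only at WT 5 and KI 5, and the log2 fold change was 0.52 (SE 0.12, adjusted p = 0.0176). By edgeR, Col6a1 passed neither with KI 1, 2 and 6 alone (adjusted p = 0.0520) nor with KI 3 to KI 5 alone (0.0631). Col6a2 (Gene ID 12834, chromosome 10), which neighbours Col6a1, spanned 48.0 to 80.4 CPM in WT (median 64.6) and 73.0 to 131 CPM in KI (median 86.3). WT 5 lay above KI 2 and KI 5, and the log2 fold change of 0.52 (SE 0.14, adjusted p = 0.0371) passed in 3 of 12 fits with 1 library left out (without WT 5, KI 2 or KI 5); the adjusted p was 0.0796 without WT 6 and 0.055 without KI 6. The third chain gene, Col6a3, went from 39.2 ± 7.35 to 52.6 ± 11.7 CPM (SD) and did not pass (log2 fold change 0.43, SE 0.15, adjusted p = 0.0955). Col6a6, a later-found chain that can take the place of the third, had 18.2 ± 8.61 CPM in WT and 13.03 ± 2.53 CPM in KI (SD), at a log2 fold change of -0.48 (SE 0.24; adjusted p = 0.215), with WT 5 alone at 35.3 CPM. Without WT 5 the log2 fold change of Col6a6 was -0.18.

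Of the 2 multiplexin genes, 1 rose. Col15a1 (Gene ID 12819, chromosome 4) spanned 48.8 to 89.5 CPM in WT (median 74.8) and 79.3 to 161 CPM in KI (median 107). KI 2 and KI 5 lay within the WT range, and the log2 fold change of 0.60 (SE 0.17, adjusted p = 0.0411) passed in 5 of 12 fits with 1 library left out (without WT 4, WT 5, KI 1, KI 2 or KI 5); the adjusted p was 0.0876 without KI 3 and 0.0723 without KI 6. Col18a1, the source of the fragment endostatin, spanned 8.58 to 12.7 CPM in WT (median 10.8) and 10.7 to 35.9 CPM in KI (median 15.8), KI 6 being the highest. It missed the threshold by edgeR (log2 fold change 0.77, SE 0.24, adjusted p = 0.060; 0.46, adjusted p = 0.057, without KI 6) and passed by DESeq2 (adjusted p = 0.0141) and in edgeR without KI 2 (0.0304).

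The transmembrane collagens, which stay in the cell membrane, gave no difference that passed. Of 4 genes, 3 were tested and 0 were higher or lower by edgeR, by DESeq2 and by voom, with 0 at an unadjusted p under 0.05. Col23a1 spanned 2.36 to 4.19 CPM in WT (median 3.20) and 2.04 to 5.41 CPM in KI (median 2.85). Col13a1 spanned 0.898 to 2.58 CPM in WT (median 1.40) and 1.28 to 2.78 CPM in KI (median 1.44). The log2 fold changes were -0.06 (SE 0.23) for Col23a1, 0.14 (SE 0.26) for Col13a1 and 0.00 (SE 0.31) for Col25a1. Of the 3 remaining genes, which include the anchoring fibril chain Col7a1, 0 passed by edgeR and 1, Col28a1, had an unadjusted p under 0.05. Col28a1 spanned 0.946 to 1.86 CPM in WT (median 1.33) and 1.37 to 3.24 CPM in KI (median 2.37; log2 fold change 0.79, SE 0.24, adjusted p = 0.054). It passed by DESeq2 (adjusted p = 0.016) and in edgeR without KI 2 (0.0257) or without WT 4 (0.0391). Col7a1 spanned 0.305 to 1.05 CPM in WT (median 0.716) and 0.425 to 1.66 CPM in KI (median 0.838; log2 fold change 0.43, SE 0.38, adjusted p = 0.516), and Col26a1 was at 0.71 (SE 0.47, adjusted p = 0.366).

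**Figure D3:**
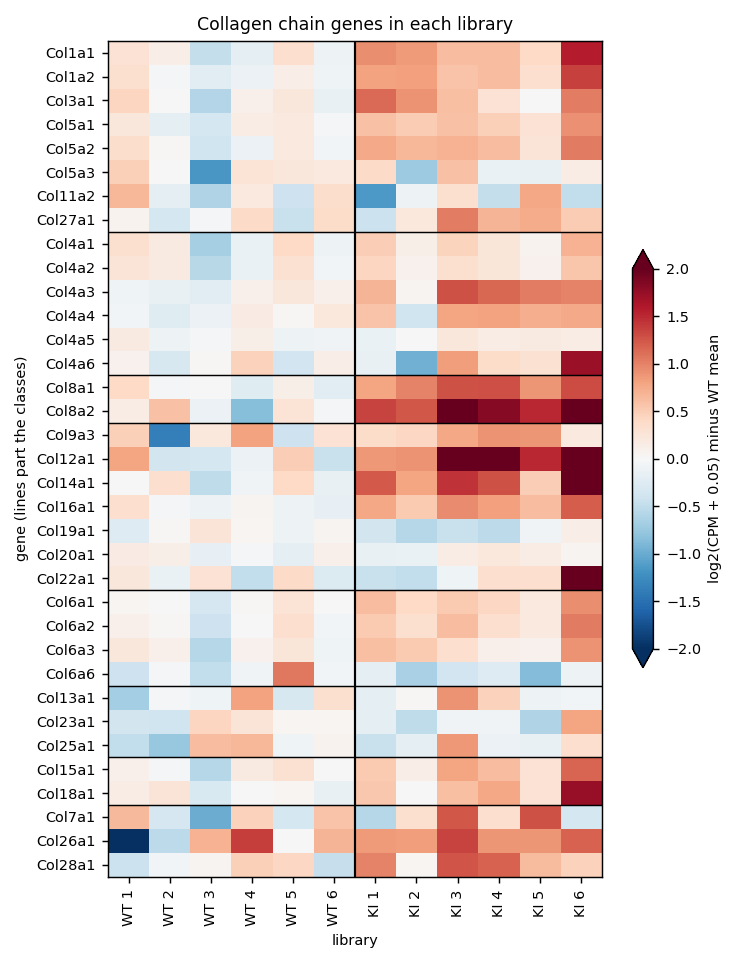
Each tested collagen chain gene (rows, grouped by class) in each library (columns), as log2(CPM + 0.05) minus the mean of the WT libraries; the strongest colours stand for 2 log2 units or more. The KI columns are red for most fibrillar, network and FACIT genes, WT 3 is the bluest WT column for Col3a1, Col4a1 and Col4a2, and KI 2 is blue for Col4a4 and Col4a6.

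The 9 members under the filter on low counts were Col2a1, Col11a1, Col24a1, Col10a1, Col9a1, Col9a2, Col6a4, Col6a5 and Col17a1, which include the chains typical of cartilage. When every gene with counts was tested, 1.74% of genes were higher in KI and 1.59% lower, and Col9a2 and Col11a1 were among them. Col9a2 was at 0.077 to 0.179 CPM in WT and 0.225 to 1.01 CPM in KI (log2 fold change 2.36, SE 0.41, adjusted p = 0.00598). Col11a1 was at 0.0254 to 0.0673 CPM in WT and 0 to 1.23 CPM in KI, the highest being KI 6 (log2 fold change 3.27, SE 0.84, adjusted p = 0.0421). These levels rest on 3 to 46 counts per library for Col9a2 and 0 to 56 for Col11a1.

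The ratio between chains passed the test for 1 of 8 pairs. The log2 ratio of 2 chains within a library was compared for 8 pairs by a two-sided exact permutation test over the 12 libraries. The p-values were adjusted over the 8 pairs (the smallest possible unadjusted p is 0.00216). A prior count of 2, scaled to the TMM-scaled library size, was added to each chain, and the scaling enters the ratio only there. Col4a3 against Col4a4 passed: the log2 ratio was -1.28 ± 0.121 in WT and -0.958 ± 0.138 in KI (SD, n = 6 each), a difference of 0.32 (exact p = 0.00433, adjusted p = 0.0346). The groups still overlapped, WT 5 at -1.08 lying above KI 1 at -1.17, and the adjusted p was between 0.0606 and 0.0693 in 8 of 12 fits with 1 library left out (without WT 1, 3, 4 or 6, or KI 3, 4, 5 or 6). Col8a1 against Col8a2 went from 5.92 ± 0.419 to 5.12 ± 0.657 (SD), a difference of -0.80 that missed the threshold (exact p = 0.0152, adjusted p = 0.0606) and was -0.54 without KI 6. For the remaining 6 pairs the adjusted p of the exact test was 0.357 or more. Col1a1 against Col1a2 differed by 0.08, Col3a1 against Col1a1 by -0.18, Col5a1 against Col5a2 by -0.11, Col4a1 against Col4a2 by 0.05, Col6a1 against Col6a2 by 0.01 and Col6a3 against Col6a1 by -0.09.

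**Figure D4:**
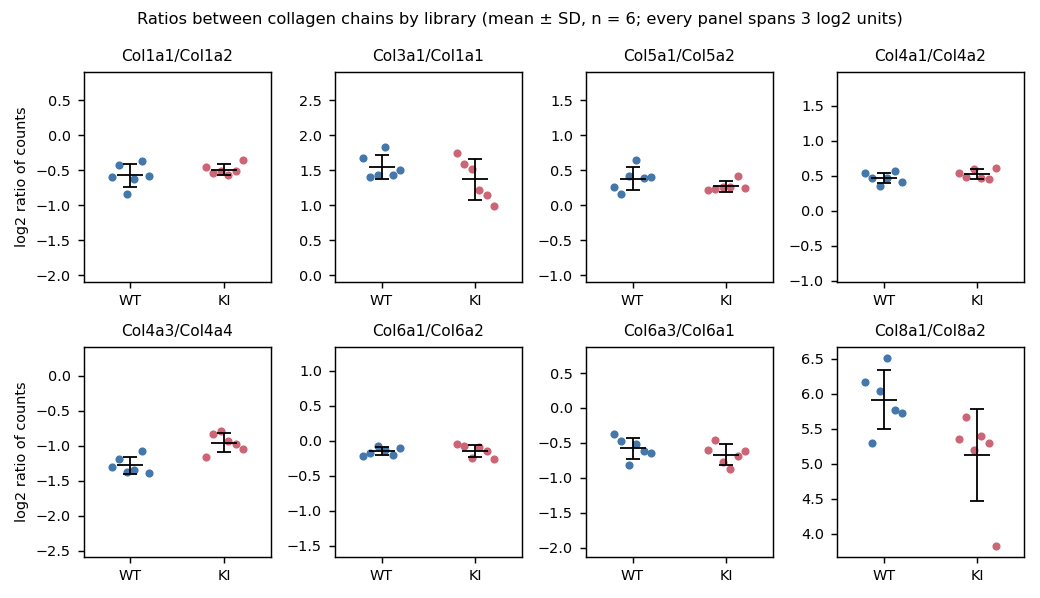
Log2 ratio of counts between the 2 chains of each of 8 pairs, by library, with the mean ± SD (n = 6 per group); every panel spans 3 log2 units. The Col4a3/Col4a4 points shift upward in KI, the Col8a1/Col8a2 points shift downward with KI 6 lowest at 3.82, and the other panels show the groups on top of each other.

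The size of the rise differed with the KI libraries used. Without KI 6, 11 members were higher and 0 lower, against 3.44% and 3.41% of all genes; Col3a1, Col4a4, Col6a2 and Col15a1 no longer passed. With KI 3 to KI 5 alone against WT, 14 members were higher and 0 lower (4.99% and 7.44% of all genes). They were 10 of the 15 and 4 others, Col27a1, Col9a2, Col18a1 and Col28a1. Col9a2 was under the filter on low counts in the full fit. It passed the filter here through KI 3 to KI 5, where it was high, so its call is no added support. Of the 15, Col1a1, Col3a1, Col6a1 (edgeR adjusted p = 0.0631), Col6a2 (0.106) and Col15a1 (0.0505) did not pass with KI 3 to KI 5. With KI 1, 2 and 6 alone 7 of the 15 were higher, with 0 others and 0 lower (0.426% and 0.138% of all genes). Calls lost there were those of Col5a1 (edgeR adjusted p = 0.0545), Col8a2 (0.0523), Col12a1 (0.0722), Col6a1 (0.0520), Col6a2 (0.0867), Col15a1 (0.155), Col4a3 and Col4a4. Col6a1, Col6a2 and Col15a1 thus passed in neither subset. These 2 comparisons share the WT libraries, and the difference between them was not tested. Type I and III chains had the larger values in KI 1, 2 and 6: Col3a1 stood at 0.98 (adjusted p = 0.0411) there and at 0.26 (0.375) in KI 3 to KI 5, and Col1a1 at 1.13 (0.0394) and 0.51 (0.0546). The type IV pair was the other way round. Col4a3 stood at 0.62 (adjusted p = 0.113) in KI 1, 2 and 6 and at 1.13 (0.000508) in KI 3 to KI 5, and Col4a4 at 0.38 (0.357) and 0.74 (0.0015). KI 2 was the lowest KI library for both genes, at 4.95 CPM of Col4a3 and 8.89 CPM of Col4a4. For Col4a4, KI 1 and KI 6 stood at 17.3 and 19.8 CPM, near KI 3 to KI 5 at 19.3 to 20.4 CPM. For Col4a3 they stood at 7.68 and 9.56 CPM, against 9.79 to 11.7 CPM in KI 3 to KI 5. The part of KI 2 in the lower subset values was not tested. Col8a1 hardly varied, at 1.02 (0.024) and 1.13 (0.00135), nor did Col16a1, at 0.86 (0.0412) and 0.78 (0.0029).

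**Figure D5:**
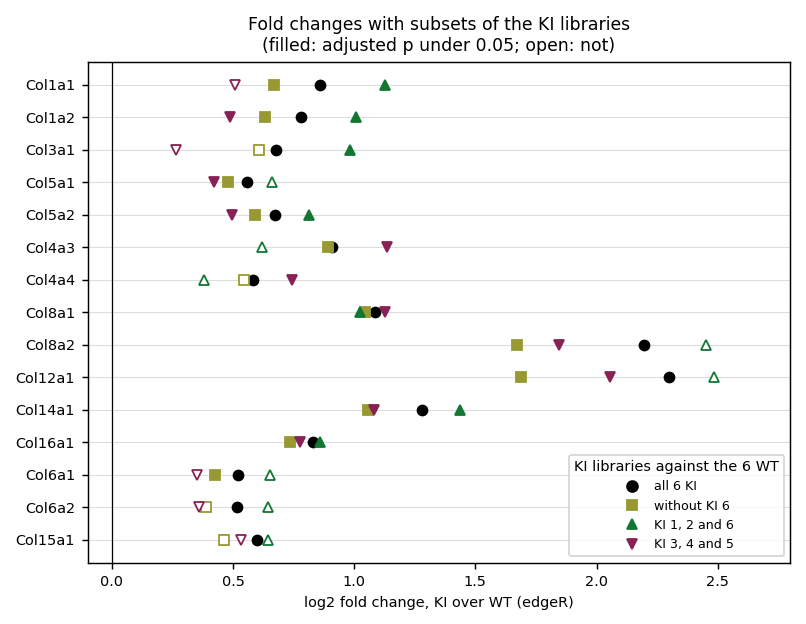
Log2 fold change of the 15 collagen chain genes higher in KI, computed by edgeR with all KI libraries, without KI 6, with KI 1, 2 and 6 and with KI 3 to KI 5, each against the same 6 WT libraries; filled symbols passed an adjusted p of 0.05. The 4 values of Col8a1 lie together near 1.1, those of Col3a1 spread from 0.26 to 0.98, and Col4a3 is highest in KI 3 to KI 5.

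Of the genes that make collagen ready for secretion, few passed, and they did so in both directions. Of 21 genes for folding and modification of the chains, 20 were tested, and 2 were higher and 1 lower by edgeR (4.41% and 4.34% of all genes). At an unadjusted p under 0.05, 6 were higher and 1 lower, against 12.9% of all genes in each direction. The log2 fold change was above 0 in 14 (52.8% of all genes), with a median of 0.05. With library totals in place of TMM, 8 were higher and 1 lower (19.0% and 1.22% of all genes). P3h3, a member of the prolyl 3-hydroxylase family, was higher, with 15.1 ± 3.76 CPM in KI against 10.2 ± 0.516 CPM in WT (SD; a log2 difference of 0.57, SE 0.14; adjusted p = 0.0223). It missed the threshold without KI 3 (adjusted p = 0.0536) or KI 4 (0.0502). P3h4, whose product acts in a complex with that of P3h3, was lower, with 15.3 ± 2.07 CPM in KI against 22.1 ± 3.58 CPM in WT (SD; a log2 difference of -0.52, SE 0.11; adjusted p = 0.0134). Ppib, a prolyl isomerase of the endoplasmic reticulum, had a small rise (0.21, SE 0.06, adjusted p = 0.0383) that was lost in 10 of 12 fits with 1 library left out (all but those without WT 1 or KI 2; adjusted p up to 0.0974). Serpinh1, the collagen chaperone HSP47, was at -0.25 (SE 0.19, adjusted p = 0.442), and was chosen for mention after its value was seen.

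Some genes for the steps outside the cell rose. Over all genes tested, 4.41% were higher and 4.34% lower by edgeR, and 12.9% in each direction had an unadjusted p under 0.05. Of 8 genes for propeptide cleavage, 3 were higher and 0 lower by edgeR (4 and 0 at an unadjusted p under 0.05), with a median of 0.37. Adamts2, the protease that removes the amino-terminal propeptide, went up from 18.6 ± 3.35 CPM to 31.8 ± 4.44 CPM (SD), a log2 difference of 0.78 (SE 0.12; adjusted p = 0.00331). The enhancers of carboxy-terminal cleavage rose as well, Pcolce2 by 0.55 (SE 0.08, adjusted p = 0.00292) and Pcolce by 0.52 (SE 0.13, adjusted p = 0.0258). Pcolce missed the threshold without WT 3 (0.0599), WT 6 (0.0648) or KI 4 (0.051). Of the 5 lysyl oxidase genes, which cross-link collagen, 2 were higher and 0 lower by edgeR (4 and 0 at an unadjusted p under 0.05), with a median of 0.61. Loxl3 stood at 0.78 (SE 0.14, adjusted p = 0.00679) and Loxl2 at 0.61 (SE 0.14, adjusted p = 0.0188). Of 10 receptor and uptake genes, 9 were tested, 1 was higher and 0 lower by edgeR (3 and 0 at an unadjusted p under 0.05). Mrc2, an endocytic receptor that takes up collagen, went up from 17.99 ± 2.55 CPM to 25.5 ± 3.77 CPM (SD), a log2 difference of 0.51 (SE 0.11; adjusted p = 0.0131), while Itgb1, the shared beta chain of the collagen-binding integrins, was at 0.01 (SE 0.05, adjusted p = 0.955). With KI 1, 2 and 6 alone against WT, Adamts2 was the only one of the 9 called pathway genes that still passed (0.84, adjusted p = 0.042). The other adjusted p values ran from 0.0523 (Pcolce2) to 0.223 (Ppib). With KI 3 to KI 5 alone, Pcolce (adjusted p = 0.0938) and Ppib (0.0596) did not pass, and without KI 6 it was Ppib (0.074) that did not.

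Several fibroblast markers rose too. Of 8 markers of activated fibroblasts, collagens left out, 7 were tested, and 5 were higher and 0 lower by edgeR, against 4.41% and 4.34% of all genes. The count of higher ones was 4 without KI 6, 3 by voom and 1 with KI 3 to KI 5 left out, and it was 4 without WT 3, WT 6, KI 3, KI 4 or KI 5. Acta2 (-0.10, adjusted p = 0.895) and Fap (-0.00, adjusted p = 0.994) did not pass, and both were chosen for mention after their values were seen. The summed level of the activated markers was 105 to 258 CPM in WT and 156 to 527 CPM in KI. Postn, a matrix protein of activated fibroblasts, had a log2 fold change of 1.47 (SE 0.21, adjusted p = 0.00247) and Cilp one of 2.03 (SE 0.42, adjusted p = 0.0124). Of 10 general fibroblast markers, 2 were higher, Mfap5 (1.09, SE 0.18, adjusted p = 0.00477) and Pi16 (0.84, SE 0.17, adjusted p = 0.0115), and 7 had an unadjusted p under 0.05, against 12.9% of all genes. With KI 3 to KI 5 left out 0 of them passed by edgeR, with adjusted p values of 0.0725 for Mfap5 and 0.0722 for Pi16. The summed level of the general markers was 1453 to 1783 CPM in WT and 1386 to 2952 CPM in KI, with KI 6 the highest and KI 2 the lowest. The part of either marker group in the collagen result was not tested. 

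Markers of the other cell types a heart can hold are given beside these. The summed level of 7 cardiomyocyte markers was 40900 to 47125 CPM in WT and 37294 to 46254 CPM in KI, and 1 of them, Tnni3, was lower (-0.26, SE 0.06, adjusted p = 0.0222), a call that was lost with scaling by library total (adjusted p = 0.088) and without WT 2, WT 3, WT 5, WT 6, KI 3 or KI 4 (up to 0.0639). All 7 were detected in every library. None of 7 endothelial, 7 pericyte and smooth muscle, 7 macrophage or 5 tested Schwann cell markers passed by edgeR, with 0, 0, 4 and 1 higher at an unadjusted p under 0.05 (12.9% of all genes) and 0, 0, 1 and 0 by DESeq2; scaling by library total called 0, 2, 4 and 1 of them higher. Their summed levels overlapped, at 701 to 857 and 684 to 892 CPM for endothelial, 1084 to 1286 and 990 to 1270 CPM for pericyte and smooth muscle, 193 to 357 and 223 to 330 CPM for macrophage, and 11.7 to 22.1 and 12.8 to 20.8 CPM for Schwann cell markers in WT and KI. Of 6 atrial markers, 3 were tested and 2 were higher, Dkk3 (2.83, SE 0.67, adjusted p = 0.0223) and Nppa (2.18, SE 0.58, adjusted p = 0.0341), with a summed level of 40.6 to 384 CPM in WT and 202 to 2321 CPM in KI. Besides KI 6, KI 3, KI 4 and KI 5 were high, at 1305, 1626 and 1267 CPM, of which Nppa made up nearly all, while Myl7 and Sln were at most 0.426 and 0.2002 CPM outside KI 6. Voom called 0 of the 3 higher. With WT 6 left out, Dkk3 no longer passed (adjusted p = 0.0514), and with KI 6 left out its log2 fold change was 1.603 (0.0151). Nppa missed it without WT 2, WT 4, WT 5, WT 6, KI 3, KI 4, KI 5 or KI 6 (up to 0.0735). Of 7 cartilage, tendon and valve markers, 3 were tested and 1, Fmod, was higher (3.48, SE 0.83, adjusted p = 0.0223; 1.87 without KI 6; adjusted p = 0.0961 by voom, and none given by DESeq2). The sum was 3.43 to 6.76 CPM in WT and 5.53 to 35.0 CPM in KI, KI 6 again the highest. Mesothelial markers, 1 of 6 tested, summed to 5.35 to 15.2 CPM in WT and 7.24 to 15.1 CPM in KI. With KI 6 left out, 11 of the 15 collagen calls remained.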

How the data were processed

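RNA from hearts of 6 WT and 6 KI mice was sequenced after a stranded messenger RNA library preparation, per the labels' protocols. Reads were trimmed with cutadapt 2.5, aligned with STAR 2.7.2b and counted with featureCounts 1.6.4 on GRCm38.p6, per the submitters' processing notes. What the authors deposited is a table of expected counts without normalization: per the file headers, reverse-strand reads over the whole gene span, introns included, with multiply aligned and overlapping reads split as fractions. Chains that resemble one another, or genes that overlap on 1 strand, can therefore share reads; 5 members overlap another entry, none of which held counts.

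Counts were rounded to whole numbers, since a count model needs whole numbers. Genes were kept by filterByExpr (minimum count 10, minimum total 15) and compared in edgeR 4.0.16 (R 4.3.3) by the quasi-likelihood test with TMM scaling and no covariates, adjusted by Benjamini-Hochberg over all genes tested. CPM values are TMM-scaled, with a prior count of 2 on the log2 scale, and levels per kb use the union of coding-transcript exons. Alternatives used DESeq2 1.42.0 and limma 3.58.1 (voom). The labels number the samples but do not say how they were taken. Each p-value therefore sets the difference between the groups against the spread between these samples.

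The members and gene lists were chosen with earlier results of these data known. Members past the threshold and the 2 most abundant of each class are given with their values; pathway lists by counts and up to 3 members of smallest adjusted p, marker lists by counts, summed level and up to 2. One pathway symbol of the folding list is an older name of P3h4 and was counted once. Figures were drawn with matplotlib 3.10.9.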

Additional observations from a re-analysis of the deposited data

Results flagged for a closer look

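Single libraries that stood apart from the other 5 of their group by Dixon's test were looked for in 86 groups of 6 values, and 10 were found. At the critical value for 6 samples, which was used, independent normal values give about 1 in 20 groups. The groups here share libraries and CPM was taken without logs, so the 10 cannot be set against that rate. In 7 of the 10 the library was KI 6. It had 176 CPM of Col1a1, 4.31 CPM of Col8a2, 14.7 CPM of Col12a1, 7.13 CPM of Col22a1, 5.41 CPM of Col23a1 and 35.9 CPM of Col18a1, each the highest of the KI group. The log2 ratio of Col8a1 to Col8a2 in KI 6, 3.82, was the lowest of that group. KI 2 had 8.89 CPM of Col4a4, far below the other KI libraries, and the next lowest was at 17.3 CPM. KI 5 had a log2 ratio of Col5a1 to Col5a2 of 0.42, above the other KI libraries. WT 5 had 35.3 CPM of Col6a6, where the next WT library had 16.6 CPM.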

How the results depend on the processing

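The count of collagen genes higher in KI, 15, was 15 with RLE size factors (background 4.12% of genes), 18 with library totals (background 19.0% of genes), 15 with no filter (13 of the 15 and 2 others, background 1.74%), 14 with a filter of CPM above 1 in 6 libraries (4.87%), 17 by DESeq2 (6.29%), 12 by voom (3.98%) and 14 without mitochondrial genes (4.28%). It was 9 with a replicate block (1.41%) and 7 with KI 3 to KI 5 left out (0.426%). It ranged from 11 to 16 when 1 library was left out (background 2.47% to 4.55%), and 11 of the 15 genes passed in all 12 such fits. Some of these counts hold Col9a2, which passed the filter on low counts there but not in the full fit. The count of lower genes was 0 throughout. Counts that were not rounded, an alternative chosen after seeing the data, also gave 15. Same-numbered libraries deviated from their group means with correlations from -0.28 to 0.04, and no library correlated best with its own number, so the numbers were not taken to pair the samples. The Col4a3/Col4a4 difference was 0.26 with KI 3 to KI 5 left out (adjusted p = 0.190), 0.38 with these alone (0.0952), where the exact test has few arrangements, and 0.32 with a replicate block (paired sign-flip, 0.25). It ranged from 0.29 to 0.36 with 1 library left out. The Col8a1/Col8a2 difference was -0.90 with a prior count of 0.5 (adjusted p = 0.0346) and ranged from -0.92 to -0.54 with 1 library left out, passing without WT 2 or KI 2. The cause of these shifts was not tested. Members under 1 CPM rest on few reads, which limits their precision.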
